A study of Mus musculus with 11 samples.

Results

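10 genes best known from blood vessel endothelium were followed through 11 RNA sequencing libraries of mouse colon cancer organoids: Tek, Rhoj, Cdh5, Lmo2, Kdr, Flt1, Tie1, Pecam1, Nos3 and Esam. They are 10 of the 23224 genes in the deposited table and were picked by name, with their levels in these libraries known. The differences from naive organoids that led to the choice are therefore given as descriptions, without p-values; counts of members passing the test against naive stand beside the share over all genes, and nothing is read from them. The question was whether endothelial genes as a set, or only single genes, accompany Sox17 in epithelial organoids.

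The organoids carry the AKP genotype, and all 5 groups share it. 3 libraries came from naive AKP organoids. 3 came from organoids re-grown out of primary tumours in immunocompetent C57Bl6 mice, and 3 out of tumours in RAG2KO mice, which lack mature T and B cells. Per the design text, the tumours were seeded in the colon by colonoscopy and the re-grown cultures were passaged until they held cancer cells alone. The last 2 libraries came from naive AKP organoids transduced with a lentiviral SOX17 overexpression construct (SOX17OE), 1 constitutive and 1 dox-inducible; each line is a single library. The sources used here say neither whether doxycycline was given nor how old the mice were.

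Endothelial cells line blood and lymph vessels and are held together by VE-cadherin. Their growth and survival are steered by VEGF and angiopoietin receptors, and SOX17, SOX18 and SOX7, the SOXF transcription factors, act in their development, SOX17 above all in arteries. In the gut epithelium SOX17 is better known from the embryonic endoderm, and none of the 10 genes is a usual marker of colon epithelium.

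Values are CPM, expected counts scaled to a common TMM library size. Library totals ranged from 14109182 to 22154456 expected counts, so that 3 counts, the upper limit that a count of 0 allows, correspond to 0.131 to 0.214 CPM. Intervals and limits cover counting error only. All 14 epithelial markers were present in every library (26.9 to 5023 CPM per gene, 7252 to 13432 CPM in sum). Of 35 further endothelial genes, 23 had at most 10 counts in each library. Clec14a and Gpihbp1 were at 0 throughout, and Cldn5, the main endothelial claudin, had no more than 2 counts. Ecscr, at 32.1 to 136 CPM, and Ptprb, at 5.07 to 92.8 CPM, were present in every library. Of 18 blood cell markers 11 had at most 10 counts in each library, with Hbb-b1 and Tyrobp among those at 0 throughout. Others were present: Cd14 had 24.2 to 69.7 CPM, Lcp1 reached 21.2 CPM in the constitutive line, and the 18 markers summed to 26.5 to 73.5 CPM. Of 14 fibroblast and pericyte markers 9 had at most 10 counts in each library, with Des at 0 throughout and a sum of 1.22 to 12.6 CPM.

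Sox17 had 0.214, 0.0438 and 0.0477 CPM in the naive libraries. Among tumour-derived libraries it had 18.4, 12.4 and 74.4 CPM in C57Bl6 and 22.2, 15.4 and 24.4 CPM in RAG2KO organoids. In the constitutive line it had 72.7 CPM (95% exact Poisson interval 68.8 to 76.9) and the inducible line 4.78 CPM (3.80 to 5.93). The inducible line thus lay below each of the 6 tumour-derived libraries, and the constitutive line lay beside C57Bl6 replicate 3. The species of the SOX17 coding sequence is not given in the sources used here, so how far these counts hold reads of the construct is not known. If that sequence is not mouse, the Sox17 values may understate total SOX17 in both lines. The length of the construct's transcript is not given either, so equal CPM need not mean equal numbers of Sox17 transcripts in a line and a tumour-derived library.

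The upstream sequences of 2 members are shown because both hold a SOX-type motif near the start site. RefSeq (GRCm38.p6) promoter entries matched 5 of the 10 members, Tek, Rhoj, Kdr, Flt1 and Tie1, and the 250 bases before each start site were searched on both strands. The motif AACAAT, or ATTGTT on the other strand, occurred once in Tek, 63 bases before the start site at chr4:94739214-94739243 (plus strand), and once in Rhoj, 26 bases before it at chr12:75308275-75308304 (plus strand). The motif is in capitals:
Tek: gaggatacccctATTGTTcctgaaaatgct
Rhoj: gcacagagccccATTGTTgccgccttcccc
The Kdr, Flt1 and Tie1 windows held no match to AACAAT. Of all 32817 RefSeq windows of this length, 9.42% held it. The shorter ACAAT, or ATTGT, contained in the motif, was in 27.7% of windows and among the members only in Tek and Rhoj. CGGAAG, or CTTCCG, an ETS-type motif, was in 13.6% of windows and among the members in Tie1 alone. A match is a string of letters and no evidence of binding.

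3 members stood far above their naive level in the constitutive SOX17OE line: Tek, Rhoj and Cdh5. Each also had its highest level of all 11 libraries there. Kdr and Pecam1 were close to 0 in every library, and Tie1, Nos3 and Esam were present in naive organoids too. Flt1 was high in the tumour-derived libraries and in the constitutive line, and Lmo2 differed between the tumour groups. In bulk RNA, a few cells with much of a transcript and many cells with little cannot be told apart, which holds for each value here.

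**Figure D1:**
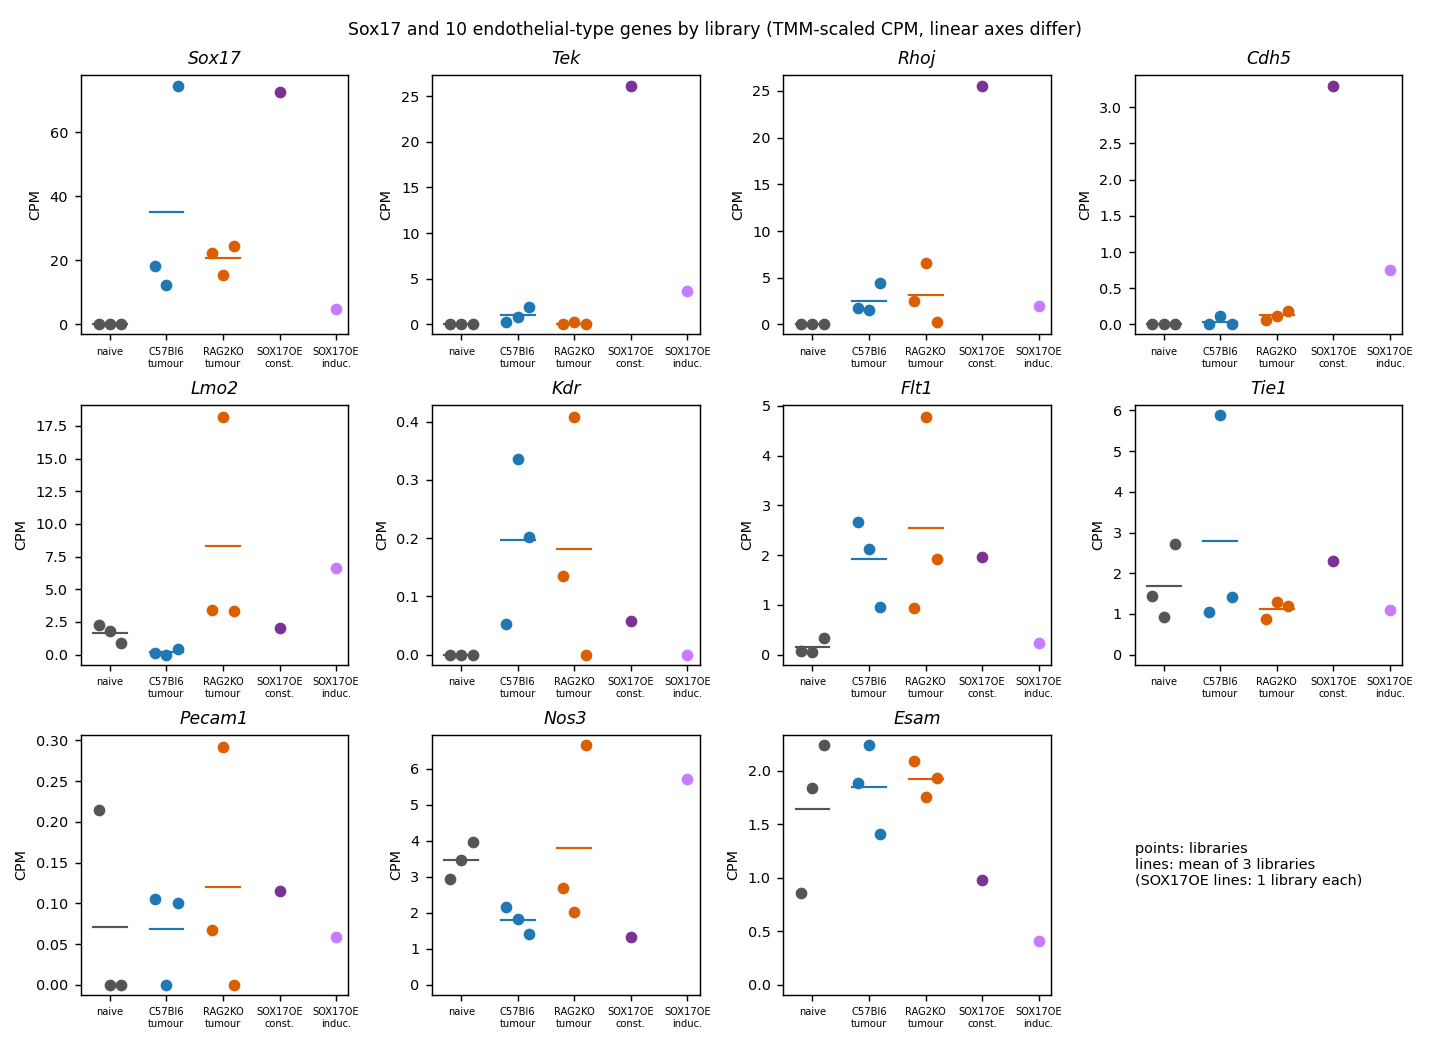
CPM (vertical axis, own scale per panel) of the 10 members in the 11 libraries by group; points are libraries and lines are means of 3 libraries. Tek, Rhoj and Cdh5 reached 26.0, 25.5 and 3.29 CPM in the constitutive line, while Lmo2, Kdr, Flt1 and Pecam1 were highest in RAG2KO replicate 2.

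Tek encodes TIE2, the receptor for the angiopoietins. It had 0.0715, 0 and 0.0953 CPM in naive organoids (1, 0 and 2 counts). The C57Bl6 libraries had 0.262, 0.842 and 1.92 CPM and the RAG2KO libraries 0.0674, 0.234 and 0 CPM. The constitutive line had 26.0 CPM (452 counts, interval 23.7 to 28.6) and the inducible line 3.61 CPM (62 counts, interval 2.77 to 4.63). All 3 C57Bl6 libraries were above all RAG2KO and naive libraries, the RAG2KO range overlapped the naive one, and both SOX17OE lines were above every other library. Against the 3 naive counts, the ratio was 502 in the constitutive line (95% counting interval from 171 to 2442). In the inducible line it was 69.6 (22.7 to 347). It was 19.7 in C57Bl6 (6.42 to 98.3) and 2.01 in RAG2KO organoids (0.390 to 12.9). With a naive library left out, the constitutive ratio ran from 304 without replicate 2 to 959 without replicate 3, the inducible ratio from 42.1 to 133 and the C57Bl6 ratio from 11.9 to 37.7, in the same order. Without C57Bl6 replicate 3 the C57Bl6 ratio was 10.4. The RAG2KO ratio was 0.624 without its replicate 2, the library with 4 of the 5 counts, 3.01 without its replicate 3, and 1.21 or 3.83 without naive replicate 2 or 3.

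Rhoj encodes a small GTPase of the CDC42 group that acts on the actin cytoskeleton and focal adhesions of endothelial cells. It had 0, 0.0876 and 0 CPM in naive organoids (2 counts in all). C57Bl6 organoids had 1.78, 1.51 and 4.39 CPM, RAG2KO organoids 2.49, 6.60 and 0.312 CPM. Rhoj stood at 25.5 CPM in the constitutive line (interval 23.2 to 28.0) and at 1.98 CPM in the inducible line (1.37 to 2.77). All 6 tumour-derived libraries were above the 3 naive ones; RAG2KO replicate 3, with 5 counts, was closest to them. The inducible line lay within the range of the tumour-derived libraries. Ratios to naive were 736 in the constitutive line (interval from 203 to 6097), 57.3 in its inducible counterpart (14.7 to 492), 75.4 in C57Bl6 (20.5 to 629) and 93.3 in RAG2KO organoids (25.4 to 777).

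The Rhoj ratios moved most with the library that held the 2 naive counts. Without naive replicate 2 the naive group was at 0, and against a floor of 3 counts per library Rhoj was at least 143-fold higher in the constitutive line, 11.1-fold in the inducible line, 14.3-fold in C57Bl6 and 17.5-fold in RAG2KO organoids. Without naive replicate 3 the ratios were 469 in the constitutive line, 36.5 in the inducible line, 48.0 in C57Bl6 and 59.4 in RAG2KO organoids. Without C57Bl6 replicate 3 its ratio was 47.8, and without RAG2KO replicate 2 that of the RAG2KO group was 39.3.

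Cdh5 encodes VE-cadherin, the adhesion molecule of endothelial junctions. It had 0 counts in each naive library, 0, 2 and 0 in C57Bl6 and 1, 2 and 3 in RAG2KO libraries. The constitutive line had 57 counts (3.29 CPM, interval 2.49 to 4.26) and the inducible line 13 (0.758 CPM, interval 0.403 to 1.30). Both lines were above every other library, and no other library passed the floor of 3 counts. Over that floor in the naive libraries, Cdh5 was at least 20.2-fold higher in the constitutive and 4.65-fold higher in the inducible line.

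Per kilobase of exon, a scale on which genes can be compared, the constitutive line had 5.54 CPM of Tek, 4.08 of Rhoj and 0.822 of Cdh5. The same library had 17.8 CPM per kilobase of Sox17, 57.4 of Cdh1, the epithelial cadherin, and 487.5 of Epcam, an epithelial surface protein. VE-cadherin transcripts were thus rare beside those of E-cadherin in that line. The Sox17 value was scaled by the exons of the mouse gene, which the construct's transcript may not match.

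Flt1 encodes VEGFR1, a receptor that binds VEGF-A tightly and signals weakly. It had 0.0715, 0.0438 and 0.334 CPM in naive organoids, then 2.67, 2.13 and 0.960 CPM in C57Bl6 and 0.944, 4.79 and 1.93 CPM in RAG2KO organoids. In the constitutive line Flt1 had 1.96 CPM (interval 1.36 to 2.74), in the inducible line 0.233 CPM (0.0635 to 0.597). All 6 tumour-derived libraries and the constitutive line were above the naive range, and the inducible line was within it. Its log2 fold change against naive was 3.58 (SE 0.85) in C57Bl6, 4.0 (SE 0.85) in RAG2KO, 3.61 (SE 1.01) in the constitutive line and 0.58 (SE 1.31) in the inducible line. Without naive replicate 3, which held 7 of the 9 naive counts, these were 4.95, 5.37, 4.98 and 1.95, and without RAG2KO replicate 2 the RAG2KO value was 3.17.

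Lmo2 encodes an adaptor that joins TAL1 and GATA factors on DNA in blood and endothelial precursors. It had 2.29, 1.84 and 0.858 CPM in naive organoids, and 0.105, 0 and 0.404 CPM in the C57Bl6 libraries (2, 0 and 8 counts), all below the naive range. The RAG2KO libraries, with 3.44, 18.2 and 3.31 CPM, were all above it. The inducible line had 6.65 CPM (interval 5.48 to 7.98), the constitutive line 2.07 CPM (1.45 to 2.87). The constitutive line was within the naive range and the inducible line above it. Against naive, the log2 fold change was -3.19 (SE 1.01) in C57Bl6, or -4.76 without its replicate 3, and 2.33 (SE 0.82) in RAG2KO organoids, or 1.03 without its replicate 2.

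Kdr and Pecam1 stayed near the floor, and Tie1 and Esam were present in every group. Kdr, which encodes VEGFR2, the main signalling receptor for VEGF-A, had 0 counts in each naive library, 1, 6 and 4 in C57Bl6, 2, 7 and 0 in RAG2KO libraries, 1 in the constitutive and 0 in the inducible line. Pecam1, the junctional molecule CD31, never passed 5 counts. Tie1, the orphan receptor related to TIE2, ranged from 0.920 to 2.72 CPM in naive libraries and was highest in C57Bl6 replicate 2 at 5.89 CPM; its other values lay between 0.876 and 2.31 CPM. Esam, an endothelial cell adhesion molecule also made by platelets, had 0.858 to 2.24 CPM in naive and 1.41 to 2.24 CPM in tumour-derived libraries, 0.980 CPM in the constitutive line (interval 0.571 to 1.57) and 0.408 CPM in the inducible line (0.164 to 0.841), the lowest of the 11 libraries.

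Nos3 encodes endothelial nitric oxide synthase. It had 2.94 to 3.96 CPM in naive, 1.42 to 2.15 in C57Bl6 and 2.03 to 6.67 in RAG2KO libraries, 1.32 CPM in the constitutive line and 5.72 CPM in the inducible line. The C57Bl6 libraries and the constitutive line were below the naive range. Its exons overlap Atg9b and Gm15587 on the opposite strand (GENCODE, GRCm38), and its expected counts were fractional in every library. Its values are therefore uncertain, since how the counting used strand is not given in the sources used here.

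**Figure D2:**
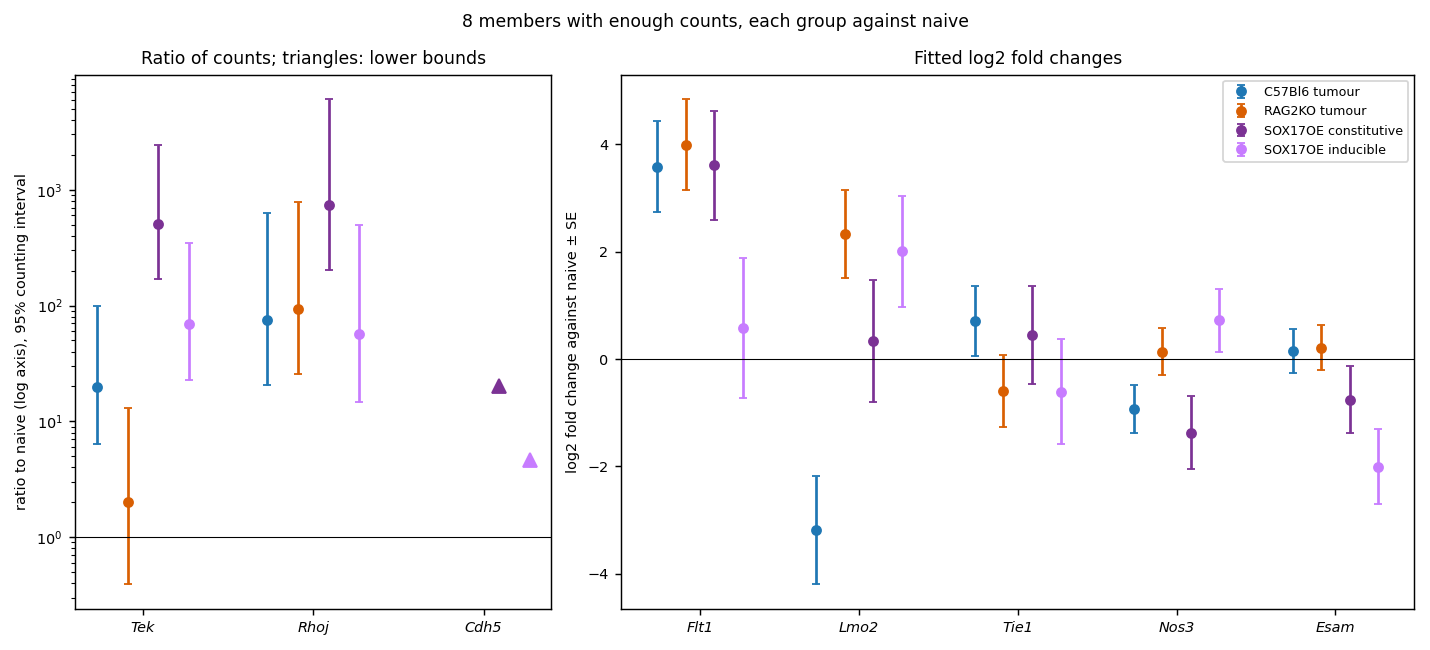
Left, ratio of counts to naive for Tek and Rhoj (logarithmic axis; bars are 95% counting intervals) and lower bounds for Cdh5 (triangles); right, fitted log2 fold changes against naive ± SE for 5 further members. Colours are the 4 groups compared with naive. The lowest Tek or Rhoj ratio is 2.01, for Tek in RAG2KO organoids. The counting intervals leave out the spread between libraries and are no test of a difference.

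Kdr and Pecam1 had too few counts to be tested, which left 8 of the 10 members. Tek and Cdh5 entered through the SOX17OE lines only; without those libraries 6 members pass the filter, so a difference of these 2 genes in the lines was built into the selection. The comparisons with naive share the same 3 naive libraries. At an edgeR adjusted p below 0.05 over all genes, 3 of 8 members were higher in C57Bl6 than in naive organoids (Tek, Rhoj and Flt1), against 9.50% of all tested genes, and none was lower, against 5.85%. In RAG2KO organoids 2 were higher (Rhoj and Flt1), against 16.0%, and none lower, against 13.3%. Lmo2 was not called against naive in either tumour group. Of 19 alternatives, 4 called it lower in C57Bl6 and 7 called it higher in RAG2KO organoids, DESeq2 among them in both. In the mean of both SOX17OE lines 3 were higher (Tek, Rhoj and Cdh5), against 6.77%, and none lower, against 5.92%. The constitutive line alone had these 3 and Flt1 higher, against 7.23%, and none lower, against 5.04%. The inducible line alone gave 0 calls among the members with edgeR, against 0.656% of all genes in either direction; 4 members had an unadjusted p below 0.05, and DESeq2 and limma voom each called 2. The Flt1 call in the constitutive line was lost without naive replicate 1 or 2, C57Bl6 replicate 2 or 3 or RAG2KO replicate 3, while its log2 fold change was 3.34, 3.14, 3.61, 3.61 and 3.61 there and 3.61 with all libraries. The Rhoj call in the mean of the lines was lost without naive replicate 2 or 3. Its ratio of counts to naive was 399 with all libraries, 254 without replicate 3 and at least 76.8 without replicate 2, where the naive group was at 0. Tek was called in the inducible line without C57Bl6 replicate 1 or 3 or RAG2KO replicate 2. In the C57Bl6 comparison no member was called without naive replicate 1 or 2, and 1, Flt1, without replicate 3. The calls over all genes fell as well, from 2106 to as few as 1030. The differences kept their direction: without a naive library the Tek ratio was 11.9 to 37.7 (19.7 with all), the Rhoj ratio 57.2 without replicate 1, 48.0 without replicate 3 and at least 14.3 without replicate 2 (75.4 with all), and the Flt1 log2 fold change 3.29 without replicate 1 and 3.11 without replicate 2 (3.58 with all).

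The 3 naive libraries had the least Sox17 and also the least Rhoj, at most 0.0876 CPM against 0.312 CPM or more in all others. For no other member were the 3 naive libraries all below every other library. Among the other libraries, the order by Sox17 was not that of any member. The constitutive line and C57Bl6 replicate 3 had nearly the same Sox17 CPM (72.7 and 74.4, a ratio of 0.978), which need not be the same number of transcripts. Tek was 13.6-fold and Rhoj 5.80-fold higher in the constitutive line than in that library, and Cdh5 had 57 counts against 0. Lmo2, Flt1 and Tie1 were also higher in the constitutive line. Nos3 (1.32 against 1.42 CPM), Esam (0.980 against 1.41 CPM) and Kdr (1 against 4 counts) were lower there, and Pecam1 had 2 counts in each. The inducible line had less Sox17 than any tumour-derived library (4.78 CPM against 12.4 to 74.4), by the count of the mouse gene, which may miss the construct. Its Tek and Cdh5 levels were above all 6 of them, at 3.61 CPM against 0 to 1.92 and at 0.758 CPM against 0 to 0.187. Its Rhoj level, 1.98 CPM, lay within their range of 0.312 to 6.60 CPM, and its Flt1 level, 0.233 CPM, below their range of 0.944 to 4.79 CPM. These are single libraries, so the differences have no replicate check.

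**Figure D3:**
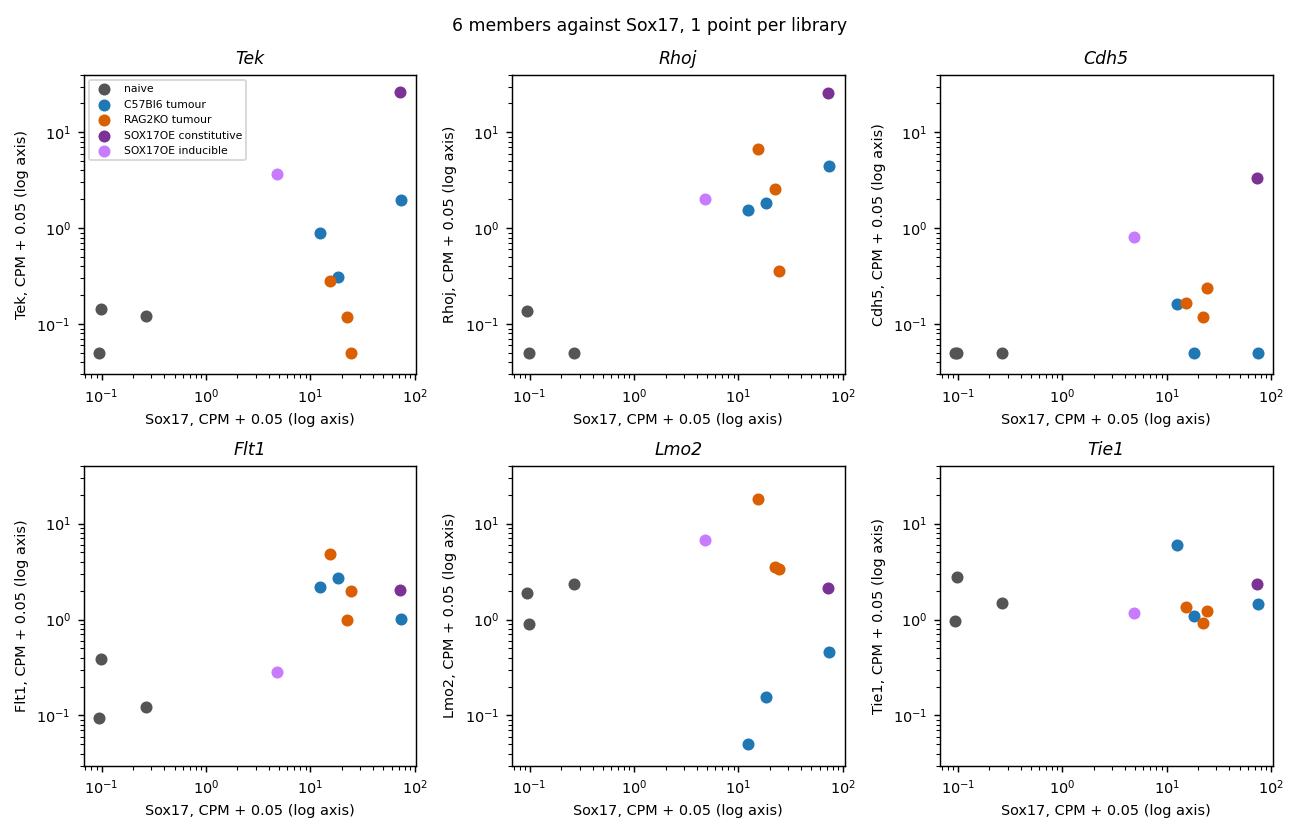
Tek, Rhoj, Cdh5, Flt1, Lmo2 and Tie1 (vertical axis) against Sox17 (horizontal axis), both as CPM + 0.05 on logarithmic axes, 1 point per library coloured by group. At almost equal Sox17 CPM (72.7 and 74.4) the constitutive line is above C57Bl6 replicate 3 in the 6 genes plotted. This does not hold for Kdr, Nos3 and Esam, which are not plotted. The inducible line at 4.78 CPM of Sox17 is above the tumour-derived libraries in Tek and Cdh5.

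Within the tumour groups the order differed from gene to gene. In C57Bl6 organoids, replicate 3 had the most Sox17, Tek and Rhoj, with 0 counts of Cdh5 and the least Flt1. In RAG2KO organoids, replicate 3 had the most Sox17 (24.4 CPM) and the least Tek and Rhoj, while replicate 2 had the least Sox17 (15.4 CPM) and the most Tek, Rhoj, Flt1, Lmo2, Kdr and Pecam1. RAG2KO replicate 2 also had the most of several genes best known from other cell types, among them Col3a1, a fibroblast collagen, at 7.07 CPM. That library also had the most Stab1, a scavenger receptor of sinusoidal endothelium and macrophages, at 12.4 CPM. Its fibroblast and pericyte markers summed to 12.6 CPM, the top of a range of 2.49 to 12.6 CPM in RAG2KO and 1.36 to 1.79 CPM in naive libraries. That sum was 8.01 CPM in the constitutive and 1.22 CPM in the inducible line. Dcn and Tagln were also highest in RAG2KO replicate 2, while Col1a1 and Col1a2 peaked in C57Bl6 replicate 2 with 6 and 7 counts. Pdgfra peaked in the constitutive line with 23 counts. The 35 other endothelial genes summed to 181 and 105 CPM in the constitutive and inducible lines, to 118 to 183 CPM in C57Bl6, 138 to 233 CPM in RAG2KO and 49.9 to 64.6 CPM in naive libraries. Few genes made up most of these sums. Ecscr alone had 135 and 75.1 CPM in the constitutive and inducible lines and 32.1 to 33.2 CPM in naive libraries. Ecscr and Ptprb had means of 56.7 and 71.1 CPM in C57Bl6 and of 105 and 28.7 CPM in RAG2KO organoids. What part cells of these types have in the members' levels was not tested. Of the 12 other endothelial genes with more than 10 counts in a library, 4 had their highest CPM in RAG2KO replicate 2 (Stab1, Sox7, Cd93 and Ecscr) and 2 in the constitutive line (Vwf and Fli1). Of the other 23, Cldn5, Emcn and Erg had at most 2, 1 and 1 counts in any library.

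The genes whose log2 CPM moved most like Tek over the 11 libraries were Krt12 (Pearson r = 0.94), Krt13 (0.93), Atl1 (0.91), Ifitm6 (0.90) and Tmem206 (0.87), out of 10849 genes ranked. Krt12 and Krt13 encode keratins of stratified epithelia. For Rhoj they were Gbp3 (0.97), Leng1 (0.95), Ctnnbip1 (0.93), Fzd6 (0.93) and Scai (0.92), and for Cdh5, out of 10850 genes ranked, Gabpb1 (0.94), Krt12 (0.93), Ube2q1 (0.92), Hap1 (0.92) and Atl1 (0.91). Genes with a mean below 1 CPM were not ranked, so 7 of the 10 members and 7 of the 35 other endothelial genes could appear; Cdh5, Kdr, Pecam1 and Fli1 could not. Krt12 had 19.5 CPM in the constitutive and 2.62 CPM in the inducible line against at most 0.455 CPM elsewhere, and Ifitm6 37.6 and 9.91 CPM against at most 1.72 CPM. Gbp3 had 13.8 CPM in the constitutive line and 0.0715 to 0.263 CPM in naive libraries. The libraries fall into groups, and the single constitutive library weighs heavily in each of these values.

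The tumour groups were compared with each other in the same edgeR fit. Rn45s, a ribosomal RNA gene, made up 3.77, 2.21 and 2.59% of expected counts in the C57Bl6 libraries. Its share was 6.56, 8.10 and 8.54% in the RAG2KO and 4.99, 3.09 and 2.42% in the naive libraries. The part of this share in the differences between groups was not tested. Of 8 members, 1 was higher and 1 lower in C57Bl6 than in RAG2KO organoids, against 12.2% and 11.8% of all tested genes. Lmo2 was lower by a log2 difference of -5.53 (SE 1.03, edgeR adjusted p = 0.00672). Lmo2 had 0 to 0.404 CPM in the C57Bl6 libraries and 3.31 to 18.2 CPM in the RAG2KO libraries. It stayed called in all 19 alternatives run, at -7.10 without C57Bl6 replicate 3 and -4.23 without RAG2KO replicate 2. Tek was higher by 3.21 (SE 0.95, edgeR adjusted p = 0.0362). The lowest C57Bl6 and the highest RAG2KO value were close, at 0.262 and 0.234 CPM, and Tek passed the filter only through the SOX17OE lines. The log2 difference of Tek was 2.33 without C57Bl6 replicate 3 and 4.69 without RAG2KO replicate 2. Its call was lost in 6 of 17 alternatives. They were limma voom (adjusted p = 0.0524) and leaving out naive replicate 1 (0.0559), C57Bl6 replicate 2 (0.0529), C57Bl6 replicate 3 (0.123), RAG2KO replicate 1 (0.0918) or RAG2KO replicate 3 (0.0945).

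The remaining members and Sox17 itself did not pass between the tumour groups. The log2 difference, C57Bl6 minus RAG2KO, was -0.29 for Rhoj (SE 0.83, edgeR adjusted p = 0.818), -0.42 for Flt1 (SE 0.69, 0.685) and 0.77 for Sox17 (SE 0.57, 0.350). It was 1.31 for Tie1 (SE 0.67, 0.177), -1.07 for Nos3 (SE 0.44, 0.101) and -0.06 for Esam (SE 0.41, 0.931). Cdh5 was at or below the floor of 3 counts in each of these 6 libraries. Without RAG2KO replicate 2 the sign turned for Rhoj, to 0.88, and for Flt1, to 0.41; Tie1 was at 0.14 without C57Bl6 replicate 2 and Nos3 at -0.39 without RAG2KO replicate 3.

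The constitutive line was set against the inducible line, 1 library each, with the spread borrowed from the other groups. Rn45s made up 6.39% of expected counts in the constitutive and 3.71% in the inducible line. None of the 8 members passed with edgeR, against 0.284% of all tested genes in either direction, and 3 had an unadjusted p below 0.05; none passed with DESeq2 or limma voom either. The log2 difference was 2.85 for Tek (SE 1.21, edgeR adjusted p = 0.411), 3.68 for Rhoj (SE 1.55, 0.412) and 2.11 for Cdh5 (SE 1.28, 0.606). Sox17 differed by 3.93 (SE 1.12, 0.236). Lmo2 and Nos3 were lower in the constitutive line, by log2 differences of -1.68 (SE 1.39, 0.718) and -2.10 (SE 0.79, 0.351). With 1 library each, these differences cannot be placed beyond the spread between libraries.

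The other endothelial genes gave a partial picture. Of 12 with enough counts, 5 rose in C57Bl6 and 5 in RAG2KO organoids against naive, 2 rose in the mean of the SOX17OE lines, and none fell. Their median log2 fold changes were 1.10, 1.63 and 0.32, beside 0.02, 0.02 and -0.01 over all tested genes. Fli1, S1pr1, Stab1, Vcam1 and Sox7 had 0, 1, 2, 5 and 9 counts in the naive libraries together. Such genes passed the filter only through other groups and could hardly fall. Nothing is therefore read from the absence of falls or from the medians. Over all tested genes, 9.50%, 16.0% and 6.77% were higher in these comparisons and 5.85%, 13.3% and 5.92% lower. These shares stand beside each of the following lists too. The C57Bl6 count was 1 without naive replicate 1 or 2, 2 without naive replicate 3 and 3 without C57Bl6 replicate 1 or 3. The RAG2KO count was 3 without naive replicate 1 or 2 or RAG2KO replicate 2, and that of the lines was 1 without naive replicate 1 or 2 and 5 without RAG2KO replicate 2. Single genes of this and the following lists are described as rising or falling only where their call held with each library left out. That condition was set after results were seen, so the held calls are no added support. Of the 71 pairs of list gene and comparison considered, 35 lost their call with a library left out. Ptprb, the vascular phosphatase VE-PTP that acts on TIE2, rose in C57Bl6 organoids from 9.55 ± 6.82 to 71.1 ± 23.4 CPM (SD, n = 3), a log2 fold change of 2.88 (SE 0.54, edgeR adjusted p = 0.00755), or 3.65 without naive replicate 3. Ecscr, an endothelial surface protein, rose in RAG2KO organoids from 32.8 ± 0.621 to 105 ± 27.3 CPM (log2 1.67, SE 0.21, edgeR adjusted p = 7.80e-04) and in the SOX17OE lines (1.62, SE 0.23, adjusted p = 0.00420), where it had 135 and 75.1 CPM. Gata2, a partner of LMO2, rose in RAG2KO organoids from 2.62 ± 1.31 to 19.1 ± 3.30 CPM (2.84, SE 0.42, adjusted p = 0.00162). Fli1, an ETS factor of endothelium and blood picked here after its values were seen, had 51 counts (2.94 CPM) in the constitutive line, 4 in the inducible line, 6 in RAG2KO replicate 2 and 0 in the other 8 libraries.

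Among 12 tested genes of angiopoietin and TIE signalling, 2 rose and none fell in C57Bl6 organoids, 3 rose and 1 fell in RAG2KO organoids, and 1 rose and 1 fell in the SOX17OE lines (median log2 fold changes 0.34, 0.35 and 0.05). The C57Bl6 count was 4 without RAG2KO replicate 2; the RAG2KO count was 2 without naive replicate 1 or 2 or RAG2KO replicate 2, and 7 without RAG2KO replicate 1. In the lines it was 0 without naive replicate 2 or 3, 1 without naive replicate 1, C57Bl6 replicate 3 or RAG2KO replicate 3, and 4 without RAG2KO replicate 2. Angpt2, the context-dependent ligand of TIE2, rose in RAG2KO organoids from 0.872 ± 0.266 to 8.95 ± 5.81 CPM (log2 3.35, SE 0.64, edgeR adjusted p = 0.00480). Dok2, an adaptor bound by TIE2, rose in C57Bl6 organoids from 1.08 ± 0.388 to 8.99 ± 6.0 CPM (3.05, SE 0.60, adjusted p = 0.00876), or by 2.35 without C57Bl6 replicate 2. Foxo1, a transcription factor held back by TIE2 signalling, fell in RAG2KO organoids from 21.9 ± 5.71 to 9.29 ± 0.320 CPM (log2 -1.24, SE 0.21, adjusted p = 0.00282). The exons of Foxo1, Gja5, Rhof, Rhoq, Stab1 and Cldn3 overlap a gene on the opposite strand (GENCODE, GRCm38), so their values are uncertain in the same way as those of Nos3.

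Of 9 tested genes of VEGF signalling, 1 rose in each comparison, none fell in C57Bl6, 2 fell in RAG2KO and 3 in the SOX17OE lines (median log2 fold changes 0.08, -0.09 and -0.72). The 4 calls in the lines became 0 without naive replicate 2, 1 without naive replicate 3 and 2 without C57Bl6 replicate 3 or RAG2KO replicate 3. Nrp1, the co-receptor neuropilin-1, had 0, 0.131 and 0.0477 CPM in naive libraries. It had 8.59, 23.9 and 12.9 CPM in C57Bl6 and 2.56, 5.72 and 3.24 CPM in RAG2KO libraries, and 0.288 and 0 CPM in the constitutive and the inducible line. It rose by 7.66 (SE 0.71, edgeR adjusted p = 1.65e-04) and 5.69 (SE 0.71, adjusted p = 7.08e-04) on the log2 scale in C57Bl6 and RAG2KO organoids, or by 8.74 and 6.77 without naive replicate 2, which held 3 of the 4 naive counts. The tumour-derived libraries were thus all above the naive and SOX17OE libraries in Nrp1. Nrp2, the related co-receptor, fell in RAG2KO organoids (-0.81, SE 0.18, adjusted p = 0.00897).

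Of 15 tested arterial and Notch genes, 3 rose and 1 fell in C57Bl6, 2 rose and 3 fell in RAG2KO, and 1 rose and 3 fell in the SOX17OE lines (median log2 fold changes 0.26, 0.01 and -0.08). The 5 RAG2KO calls became 2 without naive replicate 2 and 3 without RAG2KO replicate 2, and the 4 calls in the lines 0 without naive replicate 2 or 3. Gja5, the arterial connexin 40, rose in C57Bl6 organoids from 0.278 ± 0.0133 to 3.76 ± 2.68 CPM (log2 3.72, SE 0.67, edgeR adjusted p = 0.00526; 3.03 without C57Bl6 replicate 2). Hes1, a Notch target, rose in RAG2KO organoids from 33.0 ± 10.5 to 87.7 ± 15.9 CPM (1.41, SE 0.24, adjusted p = 0.00328). Unc5b, a netrin receptor of arteries, fell from 160 ± 40.7 CPM to 69.5 ± 12.4 in C57Bl6 (-1.21, SE 0.22, adjusted p = 0.00518) and to 82.9 ± 15.3 CPM in RAG2KO organoids (-0.95, SE 0.22, adjusted p = 0.0101).

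The list of small GTPases related to Rhoj, with their effectors and regulators, had 24 tested genes. 5 rose and 1 fell in C57Bl6, 5 rose and 5 fell in RAG2KO, and 1 rose and 2 fell in the SOX17OE lines (median log2 fold changes 0.12, 0.17 and -0.29). The 6 C57Bl6 calls became 1, 2 or 3 without naive replicate 1, naive replicate 2 or C57Bl6 replicate 1. The 10 RAG2KO calls became 5 without naive replicate 2 or RAG2KO replicate 2, and the 3 calls in the lines 5 without naive replicate 1. Rhoq, which encodes TC10, the close relative of RHOJ, had 24.7 ± 2.05 CPM in naive organoids. It rose to 61.5 ± 12.4 CPM in C57Bl6 (1.32, SE 0.18, edgeR adjusted p = 0.00111) and to 52.6 ± 8.37 CPM in RAG2KO organoids (1.09, SE 0.17, adjusted p = 0.00220). In the SOX17OE lines Rhoq had 23.4 and 17.5 CPM and did not pass the test (-0.29, SE 0.20, adjusted p = 0.346). Rhof, a filopodia-forming family member, fell in those lines from 56.1 ± 15.4 to 11.5 and 20.6 CPM (-1.86, SE 0.27, adjusted p = 0.00458), and Rac3 rose from 34.0 ± 3.38 to 88.5 and 66.4 CPM (1.17, SE 0.20, adjusted p = 0.00928). Rhoc, which acts in cell motility, rose in RAG2KO organoids from 8.16 ± 2.20 to 64.6 ± 47.0 CPM (2.98, SE 0.50, adjusted p = 0.00332), or by 2.20 without its replicate 2.

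Of 18 tested cadherin and junction genes, 3 rose in C57Bl6, 2 rose and 3 fell in RAG2KO, and 3 fell in the SOX17OE lines (median log2 fold changes 0.37, -0.12 and -0.33). The 3 C57Bl6 calls became 1 without naive replicate 1 or 2 or C57Bl6 replicate 2. The 5 RAG2KO calls became 3 without naive replicate 2 or 3 and 2 without RAG2KO replicate 2, and the 3 in the lines became 0 without naive replicate 2 or 3. Jam2, a junctional adhesion molecule best known from endothelium, rose from 0.180 ± 0.0810 CPM to 2.43 ± 0.815 CPM in C57Bl6 (3.73, SE 0.56, edgeR adjusted p = 0.00209) and to 5.14 ± 2.31 CPM in RAG2KO organoids (4.81, SE 0.57, adjusted p = 5.58e-04). It had 0.115 CPM (2 counts) in the constitutive line, within the naive range of 0.0876 to 0.238 CPM, and 0.758 CPM (13 counts) in the inducible line, above that range and below all tumour-derived libraries. Ctnnb1, beta-catenin, which binds cadherin tails, rose in RAG2KO organoids (0.68, SE 0.12, adjusted p = 0.00382).

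Of 11 tested genes of the LMO2 complex and its partners, 2 rose and none fell in C57Bl6, and 2 rose and 1 fell in both RAG2KO organoids and the SOX17OE lines (median log2 fold changes 0.20, 0.24 and 0.36). The 2 C57Bl6 calls became 0 without naive replicate 1 or 2 or C57Bl6 replicate 2 or 3, and 1 without naive replicate 3; the 3 calls in the lines became 1 without naive replicate 2. Ldb1, which bridges LMO2 to distant sites on DNA, had 40.9 ± 2.96 CPM in naive organoids. It rose to 93.2 ± 1.31 CPM in RAG2KO organoids (1.19, SE 0.13, edgeR adjusted p = 3.81e-04) and to 123 and 67.3 CPM in the SOX17OE lines (1.15, SE 0.14, adjusted p = 0.00207). Lmo4, the related adaptor of epithelia, fell in RAG2KO organoids (-0.59, SE 0.14, adjusted p = 0.0119). Tal1, the classic partner, had at most 1 count in any library. Gata2 counts in this list and among the other endothelial genes.

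Of 9 tested nitric oxide genes, 1 rose in C57Bl6, 1 rose and 2 fell in RAG2KO, and 1 fell in the SOX17OE lines (median log2 fold changes 0.05, -0.42 and -0.20). The C57Bl6 call became 2 without naive replicate 3 and 3 without C57Bl6 replicate 1, and that in the lines 0 without naive replicate 2 or 3 and 3 without C57Bl6 replicate 1. Ddah2, which breaks down an inhibitor of nitric oxide synthases, rose from 1.5 ± 0.240 CPM to 13.9 ± 6.35 CPM in C57Bl6 (3.22, SE 0.41, edgeR adjusted p = 9.22e-04) and to 11.8 ± 4.60 CPM in RAG2KO organoids (2.99, SE 0.41, adjusted p = 0.00109). Ddah1, its paralog, fell in RAG2KO organoids (-2.30, SE 0.52, adjusted p = 0.0118).

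**Figure D4:**
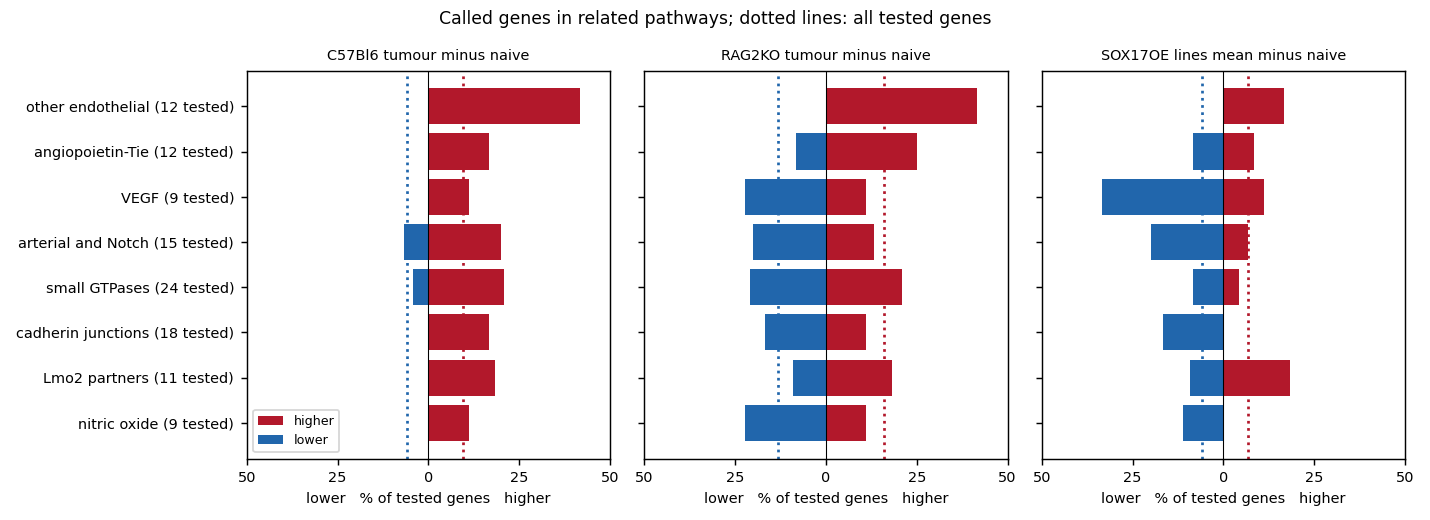
Share of tested genes (%) in 8 related lists that were higher (right) or lower (left) than naive at an edgeR adjusted p below 0.05, in C57Bl6, RAG2KO and the mean of the SOX17OE lines; dotted lines give the share over all tested genes. The other endothelial genes (5, 5 and 2 of 12 higher) have no lower gene in any of the 3 comparisons. Several of them had almost no naive counts and could hardly be lower.

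Of the marker lists for other cells, 1 of 7 tested blood cell genes rose in C57Bl6, 2 in RAG2KO and none in the SOX17OE lines (median log2 fold changes 1.61, 0.21 and 0.34). Of 5 tested fibroblast and pericyte genes 1 rose in each tumour group and none in the lines (1.22, 2.89 and -0.84). Of the 14 epithelial genes, 1 rose and 3 fell in C57Bl6, 5 fell in RAG2KO and 9 fell in the SOX17OE lines (-0.11, -0.43 and -0.81). Over all tested genes, 9.50% were higher and 5.85% lower in C57Bl6, 16.0% and 13.3% in RAG2KO, and 6.77% and 5.92% in the SOX17OE lines. The 9 epithelial calls in the lines became 2 without naive replicate 2 and 1 without naive replicate 3, and the 5 in RAG2KO organoids became 3 without naive replicate 2 or RAG2KO replicate 1 and 2 without naive replicate 3 or RAG2KO replicate 2. The blood cell counts became 0 without naive replicate 1, 2 or 3, C57Bl6 replicate 1 or 2 or RAG2KO replicate 3 in C57Bl6. In RAG2KO they became 0 without naive replicate 2 or RAG2KO replicate 2 and 1 without naive replicate 1 or 3. Those of fibroblasts became 0 without naive replicate 1 or 2 in C57Bl6, 0 without naive replicate 2 and 2 without RAG2KO replicate 1 or 3 in RAG2KO, and 1 without RAG2KO replicate 2 in the lines. Cdx2, an intestinal transcription factor, fell in C57Bl6 (log2 fold change -1.21, SE 0.20, edgeR adjusted p = 0.00317) and RAG2KO organoids (-1.29, SE 0.20, adjusted p = 0.00181), and Cldn3, an epithelial claudin, fell in the SOX17OE lines (-1.14, SE 0.20, adjusted p = 0.0102). Epcam did not pass the test in the SOX17OE lines (0.07, SE 0.14, adjusted p = 0.775). The part of these shifts in the members' levels was not tested.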

How the data were processed

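The authors deposited a table of RSEM expected counts for 23224 gene names in 11 libraries; Bowtie, RSEM and the mm9 build are named in the submitters' processing notes, with versions not given in the sources used here. Expected counts were rounded. Genes kept by filterByExpr (13720) were TMM-scaled and tested with edgeR 4.0.16 (R 4.3.3, robust quasi-likelihood), all 11 libraries in 5 groups. A gene was called at a two-sided Benjamini-Hochberg adjusted p below 0.05 over all tested genes. Standard errors (SE) of log2 differences were taken as their size over the square root of the F statistic. Single SOX17OE libraries were assumed to vary like the other groups. No source says that replicates came from separate cultures or mice, so p-values measure only the spread between these samples, which may be technical. The coefficient of variation was 25.3%, and library totals of 14109182 to 22154456 limit the precision of genes with few counts.

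The members and the gene lists were chosen with earlier results of these data known. Named were the members and Sox17, the first 3 called genes of each list by adjusted p in 3 comparisons with naive, and the 5 genes most like Tek, Rhoj and Cdh5 by Pearson correlation of log2 CPM (prior count 2, mean of at least 1 CPM, unnamed predicted genes left out). Of 71 pairs of list gene and comparison, the text describes as rising or falling the 36 whose call held with each library left out, or fewer, a limit set after results were seen. Other list genes, Stab1, Fli1, Vwf and further markers among them, were chosen after their values were seen. Group means are CPM ± SD; ratios with 1 to 3 counts have 95% counting intervals, and a group at 0 was set to a floor of 3 counts per library. Alternatives were DESeq2 1.42.0 (size factors and Wald test), limma 3.58.1 voom, library totals, other filters, each library left out, only the groups compared, the lines as 1 group and a replicate block. Gene positions on mm9 were not used; promoters come from RefSeq and exon lengths from GENCODE, both GRCm38, and the 50 bases after the start site were left out.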

Additional observations from a re-analysis of the deposited data

Results flagged for a closer look

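Both results below differ between the 2 tumour groups by the edgeR test of the difference itself. The Rn45s share was also higher in each RAG2KO than in each C57Bl6 library, and its part in these results was not tested. Lmo2 was lower in C57Bl6 than in RAG2KO organoids (log2 difference -5.53, adjusted p = 0.00672), and in the 19 alternatives the difference ran from -7.10 to -4.23 with adjusted p from 5.15e-08 to 0.0224. Lmo2 had 0 to 0.404 CPM in the C57Bl6 and 3.31 to 18.2 CPM in the RAG2KO libraries.

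Tek was higher in C57Bl6 than in RAG2KO organoids (log2 difference 3.21, edgeR adjusted p = 0.0362). The nearest libraries were close: C57Bl6 replicate 1 had 0.262 CPM and RAG2KO replicate 2 had 0.234 CPM, both near the floor of 3 counts. Tek was tested only because the SOX17OE libraries, which are outside this comparison, brought it past the filter, and it was picked with its levels known. In 17 alternatives the difference ran from 2.33 to 4.69 and the adjusted p from 0.00657 to 0.123; the call was kept in 11 of them.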

How the results depend on the processing

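Of 123 alternative counts of called members, 103 were within 1.5 times the reported one. In C57Bl6 against naive, 3 became 0 to 4 with a library left out, with 0 without naive replicate 1 or 2 and 1 without naive replicate 3. In RAG2KO against naive, 2 became 4 with limma voom and 2 to 3 with a library left out. In C57Bl6 against RAG2KO, 2 became 1 with limma voom, where Tek no longer passed, and 1 with only the groups compared, where Tek had too few counts to be tested, and 1 to 2 with a library left out. In the inducible line, 0 became 1 with no filter or with 1 CPM in 3 libraries, 2 with DESeq2, limma voom or only the groups compared, and 0 to 1 with a library left out.

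With the replicate number as a block in the 9 numbered libraries, the count in C57Bl6 against RAG2KO was 1, since Tek was not tested without the SOX17OE libraries, and Lmo2 kept its call. No other count of members moved by over 1.5 times. Of 9 same-numbered pairs, 2 had correlated deviations over 0.1 (range -0.19 to 0.18), and 3 of 9 libraries correlated best with their own number. No pairing by number was seen, though so few libraries cannot exclude one.

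21 alternative log2 differences changed sign, none of them called. With limma voom they were -0.039 for Esam in C57Bl6 against naive, 0.057 for Tie1 in RAG2KO against naive, 0.99 for Rhoj in C57Bl6 against RAG2KO, 0.58 for Tie1 in the SOX17OE lines and 0.057 for Tie1 in the inducible line. Rhoj in C57Bl6 against RAG2KO was 0.12 with the replicate block, Esam there 0.031 with library totals, and with the lines as 1 group Tie1 was 0.017 and Nos3 0.027. Ranges with a library left out were -0.46 to 1.25 for Tie1 and -0.17 to 0.43 for Esam in C57Bl6 against naive. In RAG2KO against naive they were -0.59 to 1.65 for Tek, -0.54 to 0.44 for Nos3 and -0.092 to 0.49 for Esam. In C57Bl6 against RAG2KO they were -0.93 to 0.88 for Rhoj, -0.81 to 0.41 for Flt1, -0.22 to 0.10 for Esam and -0.42 to 1.17 for Sox17, and -0.38 to 0.45 for Tie1 in the SOX17OE lines. The cause was not tested.

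Over all genes, calls ranged under the alternatives from 1030 to 4067 (2106 reported) in C57Bl6 and 2041 to 5425 (4010) in RAG2KO against naive, and from 1857 to 3959 (3295) between them. They ranged from 450 to 3815 (1741) in the SOX17OE lines, 721 to 3176 (1684) in the constitutive and 12 to 800 (90) in the inducible line, and 17 to 330 (39) between the lines. Depth limits Kdr, Pecam1 and Cdh5 outside the SOX17OE lines, where counts were at or near the floor.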
